A study of Homo sapiens with 6 samples.

Results

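CXCL8, CSF2 and IL18 encode secreted cytokines and C3 the central component of complement. CXCL8, CSF2 and C3 are known targets of the transcription factor NF-kB, and IL18 is a cytokine that many epithelia also make without stimulation. They were taken by symbol from the authors' table and are 4 of its 753 genes. RNA of AsPC-1, an established human pancreatic cancer cell line, was sequenced in 3 libraries from cells given shTMPRSS4 lentivirus (labelled TMPRSS4-Knockdown) and 3 from cells given control lentivirus (labelled TMPRSS4 NC). TMPRSS4 is a membrane-anchored serine protease. The hairpin sequence, the time after infection and whether cells were cloned or pooled are not given in the sources used, and the labels do not say that replicates were separate cultures, so p-values measure the spread between these libraries, which may be technical.

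NF-kB dimers are held in the cytoplasm by inhibitor proteins and enter the nucleus when inflammatory signals lead to the loss of those inhibitors. In epithelial tumour cells they act together with AP-1 and C/EBP factors at the promoters of cytokine genes. CXCL8 (interleukin-8) draws neutrophils through the receptors CXCR1 and CXCR2. CSF2 (GM-CSF) drives the growth and activation of granulocytes and macrophages. IL18 is made as an inactive precursor that caspase-1 cuts, so that its RNA level is not a measure of active cytokine. C3 is cut to C3a and C3b, the step at which the complement pathways meet.

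The start regions of CXCL8 and CSF2 are shown because windows were available here for these members only. The kB sites next to the start are the best known control elements of these genes. Each window is RefSeq sequence of GRCh38.p14, plus strand, with 250 bases before and 50 after the RefSeq start. The CXCL8 window is chr4:73740319-73740618 and the CSF2 window is chr5:132073539-132073838, and capitals mark matches to kB, AP-1 and TATA letters.
CXCL8: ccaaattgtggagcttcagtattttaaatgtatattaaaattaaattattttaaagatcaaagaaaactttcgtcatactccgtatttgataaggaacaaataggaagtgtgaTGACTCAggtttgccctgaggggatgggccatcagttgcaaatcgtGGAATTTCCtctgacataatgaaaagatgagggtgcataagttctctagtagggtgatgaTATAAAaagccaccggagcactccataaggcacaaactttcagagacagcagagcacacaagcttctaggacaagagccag
CSF2: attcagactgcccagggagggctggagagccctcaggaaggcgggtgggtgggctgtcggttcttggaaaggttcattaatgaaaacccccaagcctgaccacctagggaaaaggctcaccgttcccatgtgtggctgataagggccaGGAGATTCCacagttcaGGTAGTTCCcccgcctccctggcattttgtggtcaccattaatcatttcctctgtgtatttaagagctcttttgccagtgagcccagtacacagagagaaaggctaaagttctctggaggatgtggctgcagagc

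Motifs were searched on both strands. The CXCL8 window held the kB letters GGAATTTCC at positions -91 to -83 from the start, which 0.463% of 34796 RefSeq windows of the same length held. The same 9 bases also match the looser kB letters GGNNNTTCC, which 20.0% of windows held. CXCL8 further held the AP-1 letters TGANTCA at -137 to -131 (7.73% of windows) and TATAAA at -31 to -26 (11.6%). The CSF2 window held GGNNNTTCC at 2 places, -102 to -94 and -85 to -77. The first of these overlaps a match to GAGATTCC, the core of the element named CK-1, at -101 to -94, which 0.871% of windows held. Neither window held the exact C/EBP letters TTNNGNAA, which 36.9% of windows held. A C/EBP site that departs from these letters would be missed, so its absence is not shown. The matches above are of letters only and show no binding in these cells. Windows of IL18 and C3 were not available here, so no member that rose and no other member that fell is set beside these matches.

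The listed genes were selected by how much they changed. In the authors' deposited table no gene changed by less than 1 on the log2 scale and the highest FDR was 0.0490, so a large difference in any of the 4 genes is a property of the table, and the tests below describe the listed genes. Depth recovered from the ratio of count to FPKM (read number corrected for gene length and for sequencing depth) was 46800000 to 53300000 reads in the shTMPRSS4 libraries and 30200000 to 57200000 reads in the control libraries. The level of TMPRSS4 was not analysed here, which leaves the knockdown unchecked. Of 6 epithelial and 12 immune cell markers 0 were listed, so the cell type was not checked either. Of 8 fibroblast and 5 endothelial markers FAP and PECAM1 were listed, FAP at 1.80 ± 0.218 FPKM in shTMPRSS4 and 0.513 ± 0.0987 FPKM in control libraries, and PECAM1 at 0.197 ± 0.0451 FPKM in shTMPRSS4 and 0.523 ± 0.140 FPKM in control libraries (SD, n = 3 each). Their part in the results below was not tested.

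CXCL8, CSF2 and C3 were lower in the shTMPRSS4 libraries and IL18 was higher, relative to recovered depth. In edgeR's quasi-likelihood test with Benjamini-Hochberg adjustment over the 705 genes left by the filter on low counts, all 4 members passed at 0.05, against 99.1% of the genes tested. Of those genes 25.8% passed as lower and 73.3% as higher, and the members divided 3 lower to 1 higher. The median log2 fold change was -1.39 over the 4 members and 1.34 over all 753 genes of the table. The members were chosen with earlier results of these data known, so this contrast with the table is a description only. The libraries of each group did not overlap for any member, as for 97.7% of the table. In RNA from whole cultures, fewer cells that express a gene and less RNA per cell cannot be told apart.

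CXCL8 (ENSG00000169429, GENCODE 29 on GRCh38, chromosome 4, 73740506 to 73743716, plus strand) had 27.67, 24.58 and 23.05 FPKM in shTMPRSS4 replicates 1, 2 and 3, against 88.95, 74.70 and 83.88 FPKM in control replicates 1, 2 and 3. Every shTMPRSS4 library was below every control library by a wide margin. CXCL8 fell by 1.72 on the log2 scale (SE 0.11), a 3.29-fold lower level, with an edgeR adjusted p of 2.17e-08. The values rest on 1775, 1490 and 1296 reads in shTMPRSS4 libraries and 6120, 3342 and 3048 reads in control libraries. It was the most abundant of the 4 genes in both groups and stood 33rd of the 753 by mean FPKM, and its fall ranked 65th of 198 listed falls by size.

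CSF2 (ENSG00000164400, chromosome 5, 132073790 to 132076170, plus strand) had 3.72, 3.05 and 4.02 FPKM in shTMPRSS4 replicates 1, 2 and 3, against 5.62, 8.16 and 9.25 FPKM in control replicates 1, 2 and 3. Control replicate 1 lay nearest to the shTMPRSS4 libraries. CSF2 fell by 1.07 on the log2 scale (SE 0.25), with an edgeR adjusted p of 0.000656. Its fall was among the smaller ones of the table, 170th of 198. In the authors' deposited table its log2 fold change was -1.09, just past that limit of 1. The control libraries varied more for CSF2 than for any other member, with a coefficient of variation of 24.3% where counting of 253, 239 and 220 reads alone gives 6.50%. In the shTMPRSS4 libraries, with 156, 121 and 148 reads, it was 13.8% where counting gives 8.45%. Without control replicate 1 the log2 fold change was -1.28, and without control replicate 3, the single library whose label carries the code L3, it was -0.92.

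C3 (ENSG00000125730, chromosome 19, 6677704 to 6730562, minus strand) had 1.20, 1.11 and 1.37 FPKM in shTMPRSS4 replicates 1, 2 and 3, against 5.59, 5.51 and 6.03 FPKM in control replicates 1, 2 and 3. All 3 shTMPRSS4 libraries were near 1 FPKM and the groups were far apart. C3 fell by 2.22 on the log2 scale (SE 0.10), a 4.66-fold lower level, with an edgeR adjusted p of 2.96e-07. This was the largest change of the 4 genes under recovered depth and ranked 32nd of the 198 falls. C3 had 95, 83 and 95 reads in shTMPRSS4 libraries and 476, 305 and 271 reads in control libraries. Its spread was close to that of counting, with a coefficient of variation of 10.8% in shTMPRSS4 libraries (counting 10.5%) and 4.90% in control libraries (counting 5.50%).

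IL18 (ENSG00000150782, chromosome 11, 112143251 to 112164117, minus strand) had 4.90, 4.32 and 4.40 FPKM in shTMPRSS4 replicates 1, 2 and 3, against 2.39, 2.10 and 2.10 FPKM in control replicates 1, 2 and 3. It was the one member that was higher in all 3 shTMPRSS4 libraries than in any control library. IL18 rose by 1.05 on the log2 scale (SE 0.08), with an edgeR adjusted p of 0.000178, and turned to -0.17 and -0.13 when TMM or DESeq2 size factors set the scale over the listed genes. The median of all listed genes moved by -1.21 and -1.17 under those scalings. The rise was one of the smallest in the table, 529th of 555, and rests on 264, 220 and 208 reads in shTMPRSS4 libraries and 138, 79 and 64 reads in control libraries. IL18 lies within AP002884.3, a gene annotated on the opposite strand. No strand-marking step is described for these libraries, so reads of the pair may not be told apart. C3 overlaps GPR108 by 649 bases and AC008760.2 by 1357 bases on its own strand.

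**Figure D1:**
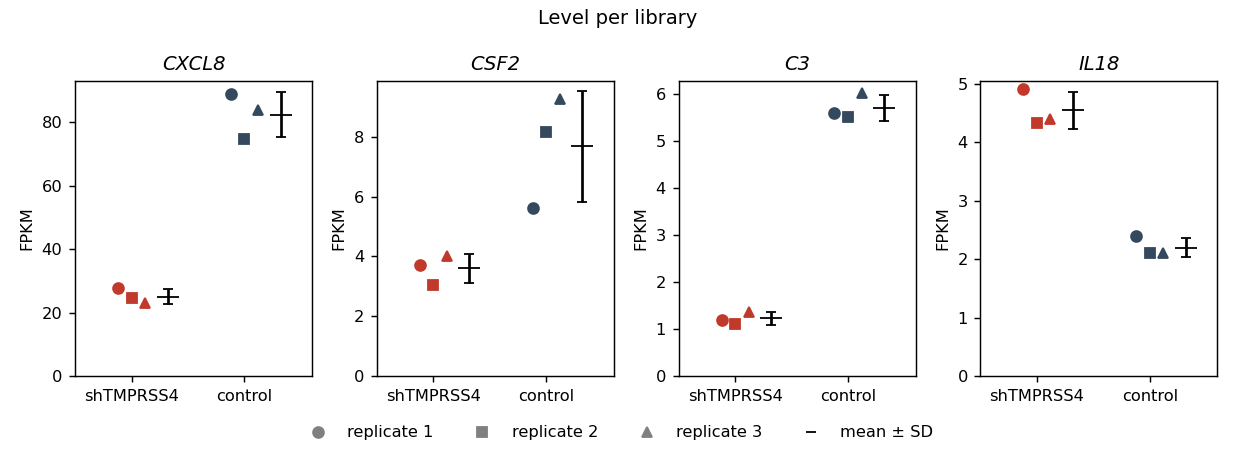
FPKM of CXCL8, CSF2, C3 and IL18 in each library, with shTMPRSS4 libraries in red and control libraries in dark blue, symbols for replicates 1 to 3, and the mean ± SD beside them. The groups do not overlap in any panel. IL18 is the 1 gene that is higher in shTMPRSS4 libraries on the FPKM scale, a direction that turns when the listed genes set the scale, and CSF2 has the widest spread among control libraries.

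**Figure D2:**
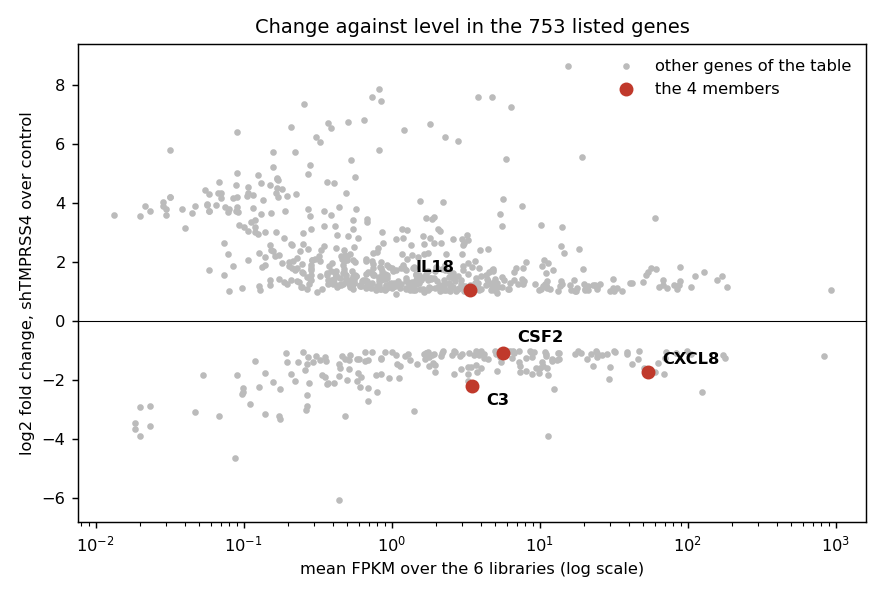
Log2 fold change of shTMPRSS4 over control against the mean FPKM over 6 libraries for the 753 listed genes (grey) and the 4 members (red). The empty band around 0 is the authors' selection on fold change. CSF2 and IL18 sit at its edges, C3 and CXCL8 farther out.

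With 3 libraries against 3, a two-sided exact permutation test of the mean FPKM of a single gene cannot go below 0.1, and each of the 4 members gave 0.1.

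Ratios between members within a library do not depend on how libraries are scaled. The reads of CXCL8 were 6.72, 6.77 and 6.23 times those of IL18 in shTMPRSS4 replicates 1, 2 and 3, against 44.4, 42.3 and 47.6 times in control replicates 1, 2 and 3. This ratio was tight within each group, at 6.58 ± 0.300 in shTMPRSS4 and 44.8 ± 2.68 in control libraries (SD, n = 3 each), a log2 difference of -2.77 (SE 0.06). Since the table holds CXCL8 as a gene lowered, and IL18 as a gene raised, by at least 1 on the log2 scale, a large difference of this ratio was fixed by the selection, and its size and spread are given as a description.

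The ratios between the genes that fell also differed between the groups of these libraries. The ratio of CXCL8 to C3 reads was 18.7, 18.0 and 13.6 in shTMPRSS4 replicates 1, 2 and 3, against 12.9, 11.0 and 11.2 in control replicates 1, 2 and 3. The groups were near each other but did not overlap, and the log2 difference was 0.51 (SE 0.16). The ratio of CSF2 to C3 reads was 1.55 ± 0.0923 in shTMPRSS4 and 0.709 ± 0.154 in control libraries, a log2 difference of 1.15 (SE 0.20). C3 reads outnumbered CSF2 reads in all 3 control libraries and CSF2 reads outnumbered C3 reads in all 3 shTMPRSS4 libraries.

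For CXCL8 over CSF2 the ratio was 11.4, 12.3 and 8.76 in shTMPRSS4 replicates 1, 2 and 3, against 24.2, 14.0 and 13.9 in control replicates 1, 2 and 3. Control replicate 1 stood apart. The log2 difference was -0.64 (SE 0.30) and became -0.38 without that library. In all 6 pairs of members the ratios of the groups did not overlap. Each pair gave an exact permutation p of 0.1 (two-sided, n = 3 each, 0.1 after Benjamini-Hochberg adjustment over the 6 pairs), the smallest that this design allows. For every pair that holds IL18 a large difference was fixed by the selection. The FPKM of 97.7% of single listed genes did not overlap either, and the share among other pairs of listed genes was not computed.

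**Figure D3:**
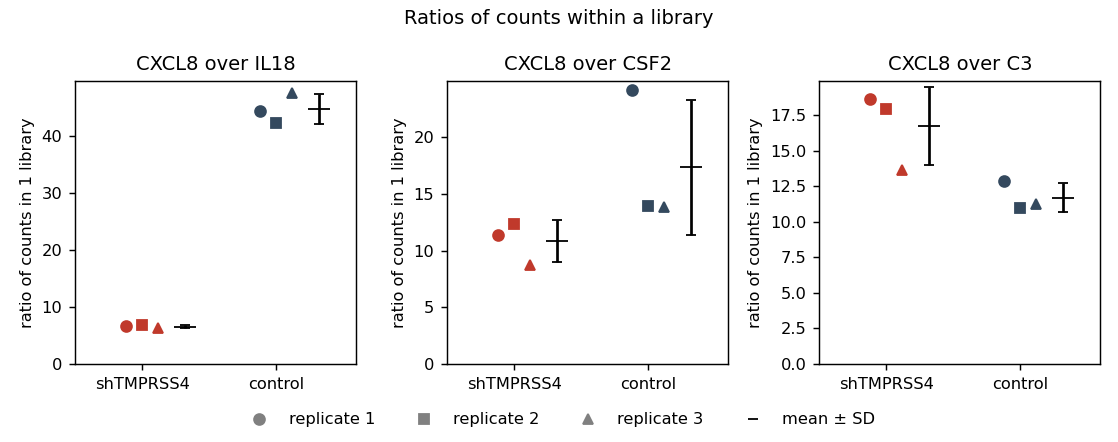
Ratio of CXCL8 reads to those of IL18, CSF2 and C3 within each library (vertical axes from 0), with shTMPRSS4 libraries in red, control libraries in dark blue, and the mean ± SD. The ratio to IL18 is near 6.58 in shTMPRSS4 and 44.8 in control libraries, and in the CSF2 panel control replicate 1 stands above the other libraries at 24.2.

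In order of deposited FPKM the shTMPRSS4 libraries ran CXCL8 (25.1 ± 2.35), IL18 (4.54 ± 0.314), CSF2 (3.60 ± 0.497) and C3 (1.23 ± 0.132), and the control libraries CXCL8 (82.5 ± 7.22), CSF2 (7.68 ± 1.86), C3 (5.71 ± 0.280) and IL18 (2.20 ± 0.167; SD, n = 3 each). CSF2 and C3 overlapped in the control libraries, and no other neighbours in either order overlapped. These levels depend on the gene length behind the FPKM. Count, FPKM and recovered depth together give a length of 1202 bases for CXCL8, 787 for CSF2, 1010 for IL18 and 1486 for C3. The longest GENCODE 29 transcripts of these genes have 1705, 787, 1697 and 5263 bases. For C3 the implied length was thus 0.282 of the longest transcript, against a median of 0.625 over 159 listed genes with at least 200 reads in every library. With FPKM recomputed on the longest transcript, C3 had 0.346 ± 0.0371 FPKM in shTMPRSS4 and 1.61 ± 0.0787 FPKM in control libraries. On that scale CSF2 (3.60 ± 0.497 in shTMPRSS4, 7.68 ± 1.86 in control) was above C3 in every library of both groups. IL18, with 2.70 ± 0.186 in shTMPRSS4 and 1.31 ± 0.0991 in control libraries, was below CSF2 in every library. Fold changes between the groups do not depend on the length.

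Most other genes of these pathways were not in the table, which holds for genes in general. The authors' p-values and FDR together imply an adjustment over about 15120 genes, of which 753 were listed. The counts of listed genes below are therefore not read as a result about these pathways. The lists used here were chosen with earlier results of these data known, and a gene that is not listed was not analysed here. Of 14 receptors and binding partners of the members, ITGAX was listed and fell. ITGAX encodes an integrin subunit of the complement receptor that binds cleaved C3. It had 3, 5 and 4 reads in shTMPRSS4 replicates 1, 2 and 3, against 56, 16 and 34 reads in control replicates 1, 2 and 3, a log2 fold change of -3.15 (SE 0.48) from a low level. Of 30 genes of the interleukin-1 family and the inflammasome, the setting in which IL18 is processed, 0 were listed.

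Of 32 NF-kB subunits, kinases and inhibitors, TRAF3 alone was listed. TRAF3 is an adaptor that restrains the alternative NF-kB pathway. It had 4.44, 4.05 and 5.08 FPKM in shTMPRSS4 replicates 1, 2 and 3, against 14.38, 14.81 and 5.91 FPKM in control replicates 1, 2 and 3. Control replicate 3 lay close to the shTMPRSS4 libraries and apart from the other control libraries. TRAF3 passed with all 6 libraries (log2 fold change -1.26, SE 0.44, edgeR adjusted p = 0.0249). It did not pass without any one of the other 5 libraries (edgeR adjusted p from 0.0561 to 0.0810). Without control replicate 3 it passed, at a log2 fold change of -1.70.

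Of 40 other NF-kB target genes 3 were listed, with PLAU and MMP1 lower and LTA higher. PLAU, the urokinase plasminogen activator, fell by 1.53 on the log2 scale (SE 0.08), at 3.76 ± 0.142 FPKM in shTMPRSS4 and 10.9 ± 0.926 FPKM in control libraries. MMP1, interstitial collagenase, fell by 1.49 (SE 0.14), at 1.04 ± 0.146 FPKM in shTMPRSS4 and 2.90 ± 0.265 FPKM in control libraries. PLAU and MMP1 overlap annotated genes on the opposite strand, as do CXCL10, IL12A, C1S and CP below, and C1S and SERPINA3 also overlap genes on their own strand, so their reads are uncertain. LTA, which encodes lymphotoxin alpha, had 27, 30 and 22 reads in shTMPRSS4 libraries and 7, 2 and 2 reads in control libraries. Its log2 fold change was 2.61 (SE 0.33), from few reads. LTA did not pass with DESeq2's own size factors (adjusted p = 0.0558).

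Of 39 other chemokines 3 were listed, 2 lower and 1 higher. CCL22, a chemokine that attracts CCR4-bearing T cells, fell by 1.17 on the log2 scale (SE 0.07), at 2.41 ± 0.0702 FPKM in shTMPRSS4 and 5.43 ± 0.408 FPKM in control libraries. CXCL10, an interferon-induced chemokine for T cells, had 2, 0 and 4 reads in shTMPRSS4 libraries and 22, 17 and 8 reads in control libraries, a fall that rests on few reads. CCL2, a monocyte chemokine, had 22, 35 and 32 reads in shTMPRSS4 libraries and 5, 4 and 7 reads in control libraries. Its log2 fold change of 2.07 (SE 0.47) passed under recovered depth and did not pass under TMM or DESeq2 size factors (adjusted p = 0.157 and 0.204). Of 25 other haematopoietic cytokines IL12A was listed, and it fell, with 0.67, 1.10 and 1.54 FPKM in shTMPRSS4 replicates 1, 2 and 3, against 2.64, 2.18 and 2.60 FPKM in control replicates 1, 2 and 3. IL12A encodes the p35 subunit of interleukin-12.

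Other complement genes went both ways. Of 45 components and regulators 3 were listed. C5, the component cut after C3, rose by 1.40 on the log2 scale (SE 0.17), at 1.23 ± 0.0603 FPKM in shTMPRSS4 and 0.470 ± 0.0900 FPKM in control libraries, although it did not pass under TMM or DESeq2 size factors (adjusted p = 0.506 and 0.378). C1S, a protease of the classical pathway, fell by 1.30 (SE 0.23), with 29, 42 and 28 reads in shTMPRSS4 libraries and 78, 70 and 49 reads in control libraries. CPN1, the catalytic subunit of the carboxypeptidase that inactivates C3a, had 28, 28 and 29 reads in shTMPRSS4 libraries and 0 in each control library. It was at least 23.5-fold higher, against a floor of 3 reads over the control group that covers counting error only.

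Acute phase genes, which share inducers with C3, had 2 of 20 members in the table, both lower. SERPINA3, a protease inhibitor, fell by 1.03 on the log2 scale (SE 0.17), at 4.78 ± 0.763 FPKM in shTMPRSS4 and 9.74 ± 1.09 FPKM in control libraries. Of its 31-base words 30.4% occur in other annotated genes, against 0% for CXCL8 and CSF2, 3.17% for IL18 and 3.19% for C3. CP (ceruloplasmin, a copper-carrying ferroxidase) fell by 3.21 (SE 0.38), with 15, 12 and 6 reads in shTMPRSS4 libraries and 150, 66 and 51 reads in control libraries. Of 29 AP-1 and immediate early genes JUND was listed. JUND, an AP-1 subunit, rose by 1.34 (SE 0.05), at 127 ± 2.35 FPKM in shTMPRSS4 and 50.3 ± 2.93 FPKM in control libraries, and did not pass under TMM over the listed genes (adjusted p = 0.0821).

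**Figure D4:**
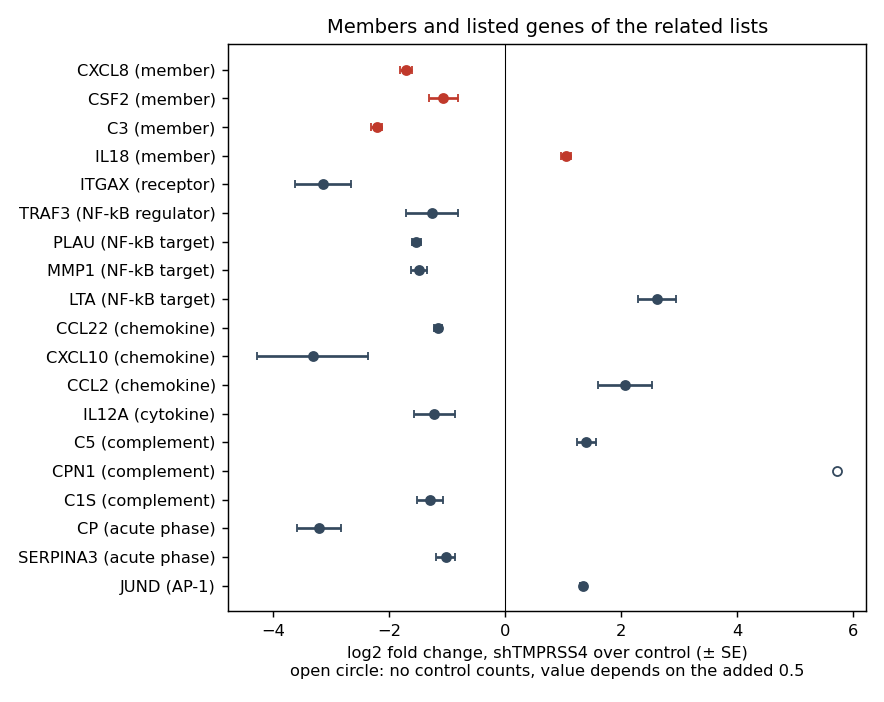
Log2 fold change of shTMPRSS4 over control, relative to recovered depth, for the 4 members (red) and the 15 listed genes of the related lists (dark blue), with bars of ± 1 SE. CPN1 (open circle) had 0 control reads, so its point depends on the added constant. LTA, CCL2, C5, CPN1, JUND and IL18 lie above 0, IL18 turning under TMM and DESeq2 size factors.

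The genes whose pattern over the 6 libraries was most like each member were taken by the smallest Euclidean distance between centred log2 depth-scaled counts, among 455 genes with a symbol and at least 1 FPKM in the higher group. For CXCL8 these were FAM102B (distance 0.174), the fatty acid desaturase SCD5 (0.220) and the amino sugar enzyme GNPDA1 (0.235). FAM102B had 4.09, 4.16 and 3.60 FPKM in shTMPRSS4 libraries and 14.98, 12.51 and 13.84 FPKM in control libraries, with control replicate 2 the lowest control as for CXCL8. For CSF2 they were the kallikrein KLK11 (0.308), the keratin KRT13 (0.430) and the immune checkpoint protein VSIR (0.449). KLK11 had 1.14, 1.18 and 1.28 FPKM in shTMPRSS4 libraries and 2.09, 2.94 and 2.98 FPKM in control libraries, so that control replicate 1 was the lowest control for KLK11 and CSF2 alike. Like genes were picked on these same 6 libraries, so shared orders of the replicates are partly set by that choice.

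For C3 the nearest were NDRG1 (0.270), the E3 ubiquitin ligase TRIM31 (0.296) and the carbonic anhydrase CA9 (0.361). NDRG1 and CA9 are known to be induced by hypoxia. For IL18 they were the tetraspanin TSPAN7 (0.114), C11orf54 (0.114) and the chromatin-associated protein PHF6 (0.122). Among the like genes of all members, TSPAN7, C11orf54 and SCD5 overlap genes annotated on their own strand. C11orf54, SCD5, KRT13, VSIR, TRIM31 and CA9 overlap genes annotated on the opposite strand. No strand-marking step is described, so the reads of all these genes are uncertain. Of the 31-base words of TSPAN7 20.3%, and of those of C11orf54 16%, occur in other annotated genes. TSPAN7 had 5.43, 5.07 and 5.21 FPKM in shTMPRSS4 libraries and 2.64, 2.38 and 2.52 FPKM in control libraries. Having fold changes close to that of IL18, all 3 also lie below 0 under TMM and DESeq2 size factors, which shift all listed genes alike. The distances describe likeness over 6 libraries that fall into 2 groups, and they were not tested.

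**Figure D5:**
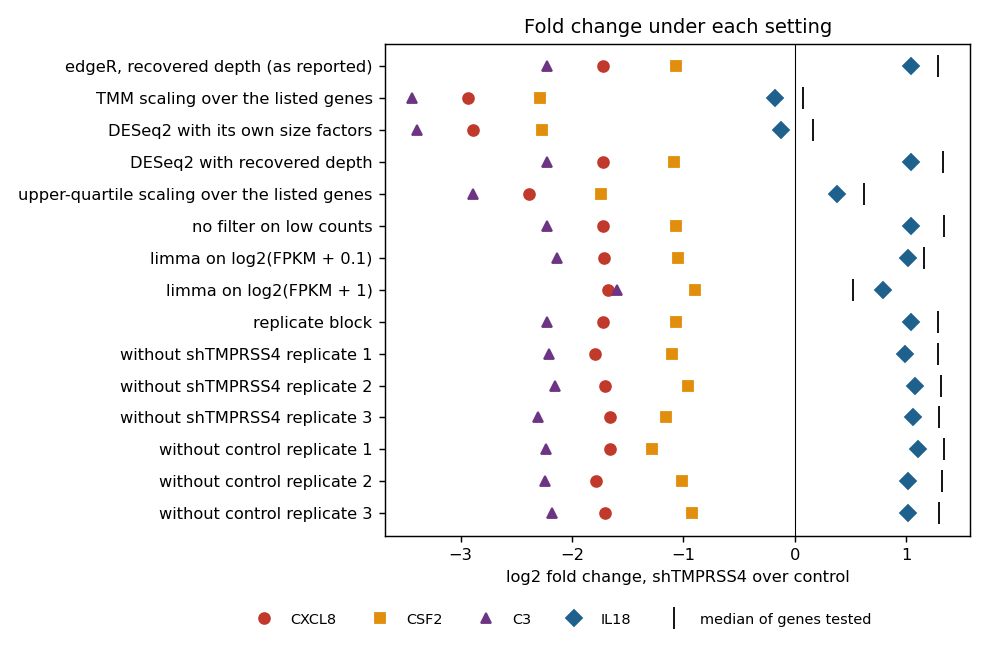
Log2 fold change of shTMPRSS4 over control for the 4 members under the reported setting (top line) and each alternative below it, with the median over the genes tested as a black tick. CXCL8, CSF2 and C3 stay below 0 on every line, and IL18 lies at -0.17 and -0.13 under TMM and DESeq2's own size factors.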

How the data were processed

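Per the labels' protocols, oligo(dT)-enriched RNA was fragmented, copied from random primers and read on a HiSeq2500. Bowtie 0.12.2 and 2 builds of the mouse genome (mm8, mm9) stand in the submitters' processing notes, while all 753 identifiers matched human GENCODE 29, so the reference behind the values is uncertain. The deposited table holds whole-number read counts, FPKM rounded to 2 decimals, the authors' log2 fold change and their p-value and FDR. How the authors counted reads and tested genes is not given in the sources used here.

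Relative depth was the median ratio of count to FPKM over 159 genes with at least 200 reads in every library, and 12 genes with a single annotated transcript set the absolute depth. The main test was edgeR 4.0.16 (R 4.3.3) with this depth as library size and no scaling over the listed genes, at an adjusted p under 0.05. It was tested on simulated data. Log2 fold changes are differences of mean log2 depth-scaled counts plus 0.5, with the SE over 3 against 3 libraries. Under TMM and upper-quartile scaling the counts were scaled to the library sizes that those methods set. DESeq2 1.42.0 and limma 3.58.1 (on log2 FPKM plus 0.1 or 1) served as alternatives, and their log2 fold changes are the estimates of those tools. The members, lists and motifs were chosen with earlier results of these data known. The genes named are the members, every listed gene of the lists, and 3 like genes per member. Replicate libraries differed by more than sampling noise.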

Additional observations from a re-analysis of the deposited data

How the results depend on the processing

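CXCL8, CSF2 and C3 kept their direction and passed under all 14 alternatives run. IL18 turned to -0.17 under TMM (edgeR adjusted p = 0.456) and to -0.13 under DESeq2's own size factors (adjusted p = 0.612), and with upper-quartile scaling it was 0.38 and did not pass (edgeR adjusted p = 0.0554). By construction these scalings pull the median of the listed genes towards 0. TMM left 357 passing genes, 166 of them higher and 191 lower, and DESeq2's own size factors left 394, 197 higher and 197 lower. The reported edgeR fit passed 699 of 705 genes, 517 higher and 182 lower, and DESeq2 with recovered depth 752 of 753, 554 higher and 198 lower. Leaving out 1 library at a time gave -1.79 to -1.66 for CXCL8, -1.28 to -0.92 for CSF2, 0.99 to 1.11 for IL18 and -2.30 to -2.15 for C3, and 698 to 708 passing genes (513 to 526 higher, 178 to 185 lower). Deviations of same-numbered libraries correlated at -0.04 to -0.01 over 698 genes, and those of other pairs at -0.02 to 0.05. No shared effect of the replicate number was seen, which cannot show whether same-numbered libraries were prepared together. With the replicate number as a block 682 genes passed, 507 higher and 175 lower, the 4 members among them, and TRAF3 did not (edgeR adjusted p = 0.121). The length behind FPKM, an alternative chosen after seeing the data, moved the level of C3 in control libraries to 1.61. Depth limits CXCL10, LTA, CCL2, ITGAX, CP and CPN1, which rest on few or no reads in 1 group.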

Other observations

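In the KEGG terms of the deposited annotation, read after the values were seen, CXCL8, CSF2 and IL18 share cytokine-cytokine receptor interaction with 14 other listed genes. Of these 17 genes 8 were higher and 9 lower in the shTMPRSS4 libraries, with a median log2 fold change of -1.0, where the table as a whole had 555 higher and 198 lower and a median of 1.34. Only terms that hold at least 2 of the 4 members are given, and every count includes those members, of which 3 fell. The counts were thus partly set by the choice of terms, and their contrast with the table is a description only. The lower ones include CCL22, IL12A and CXCL10, and the higher ones include LTA and CCL2. CXCL8, IL18 and C3 share the term Legionellosis with IL12A and NAIP, of which 2 were higher and 3 lower. CXCL8 and C3 share the term Pertussis with 6 other listed genes, C5 and C1S among them, and 2 of these 8 genes were higher and 6 lower. Salmonella infection (CXCL8, CSF2 and IL18) had 2 higher and 3 lower, and Amoebiasis (CXCL8 and CSF2) 3 higher and 6 lower. Chagas disease (CXCL8 and C3) had 3 higher and 4 lower. Transcriptional misregulation in cancers (CXCL8 and CSF2) had 4 of each, and Malaria (CXCL8 and IL18) 3 of each. The remaining terms held more higher than lower genes, as did the table as a whole. Rheumatoid arthritis, which holds CXCL8, CSF2 and IL18, had 6 genes higher and 3 lower, Influenza A (CXCL8 and IL18) 8 higher and 5 lower, Tuberculosis (IL18 and C3) 8 higher and 4 lower, and NOD-like receptor signaling (CXCL8 and IL18) 4 higher and 2 lower. The terms overlap in their genes, and each is given as a count of listed genes with no test.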
